A study of Mus musculus with 2 samples.

Results

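The cells described here are hippocampal microglia with a high content of immediate early gene transcripts, in single-cell RNA sequencing data from mice 3 weeks after birth. They were chosen within each library. A barcode counted as a microglial cell when it held at least 1500 unique molecular identifiers (UMIs, each standing for 1 captured transcript molecule), at least 200 genes, at most 10% UMIs from mitochondrially coded genes and at least 50 UMIs over the microglial genes C1qa, C1qb, C1qc, Csf1r, P2ry12, Cx3cr1 and Tmem119. Of these cells, the 10% of each library with the largest share of UMIs from 10 genes were taken: Fos, Fosb, Jun, Junb, Egr1, Ier2, Atf3, Zfp36, Btg2 and Nr4a1. This gave 1049 of 10498 cells in the Control library and 829 of 8298 in the FGR library, or 1878 of 18796 in all. They are called early-gene-high cells below and are set against the other 90% of their own library, 9449 Control and 7469 FGR cells.

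The study has 2 libraries, 1 of Control animals and 1 of animals with reduced growth before birth (fetal growth restriction, FGR). All mice carried 1 copy of a Tmem119-tdTomato allele, a red reporter tied to a gene that marks microglia, and the cells had been sorted for Tmem119. The sources used here do not give how growth was restricted or how many animals were pooled into a library. With 1 library a group no test between groups was possible, and any difference between the libraries, in handling or in the animals, cannot be told apart from the condition. Levels are counts-per-million (CPM) of the UMIs summed over a set of cells. Ranges in parentheses are exact 95% intervals that cover counting error only, not variation between cells, animals or libraries.

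Immediate early genes are switched on within minutes of a stimulus without new protein synthesis, through kinases that act on transcription factors already bound to their promoters. Many of them code for transcription factors themselves: Fos and Jun family proteins pair to form AP-1, and Egr1 is a zinc finger factor. In microglia they are induced by signals in the tissue and also while tissue is cut, warmed and digested to free the cells, so their level in sorted cells can reflect handling as well as the state in the brain.

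Microglial markers were set against those of other cell types. All 12 microglial markers were detected, but 7 of them had chosen the cells as microglia. The 5 that had not summed to 11964 CPM in Control and 10609 CPM in FGR, against 13082 and 12453 CPM in the other 90%. The 55 markers of oligodendrocytes, astrocytes, neurons, vessels, border macrophages and blood cells summed to 504 and 461 CPM, against 592 and 517 CPM in the rest, and 27 and 21 of them were at 0. The highest of these was Slc1a3, an astrocyte transporter, at 155 and 289 CPM. Median UMIs per cell were 4409 in Control and 4837 in FGR, against 4723 and 5001 in the rest, with 1980 and 2014 genes against 2075 and 2094. Mitochondrially coded genes gave a median of 1.48% and 1.33% of a cell's UMIs, against 2.01% and 1.99%. Doublets could not be called reliably (Scrublet marked 1 and 0 cells) and remain in the data. Of the microglial barcode sequences, 30 occurred in both libraries, and 1 of them was early-gene-high in both. Without these 30, the counts of higher genes given below were 75 in Control and 61 in FGR, and FGR against Control gave 82 higher and 60 lower genes.

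The share of UMIs from the 10 genes formed a continuous range with no gap at the threshold. In the Control library the early-gene-high cells ran from 3.95% to 8.16% with a median of 4.44%, and the other 90% had a median of 2.03%. In the FGR library the range was 5.14% to 10.5% with a median of 5.88%, against a median of 2.58%. The lowest chosen Control cell had 3.9474% and the highest cell left out 3.9469%. In FGR these values were 5.138% and 5.134%. Within 10% of the threshold lay 456 chosen and 635 other Control cells, and 320 and 435 FGR cells. By this share the cells are the upper end of a range. The same share chose them, so whether they form a separate type was not tested.

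**Figure D1:**
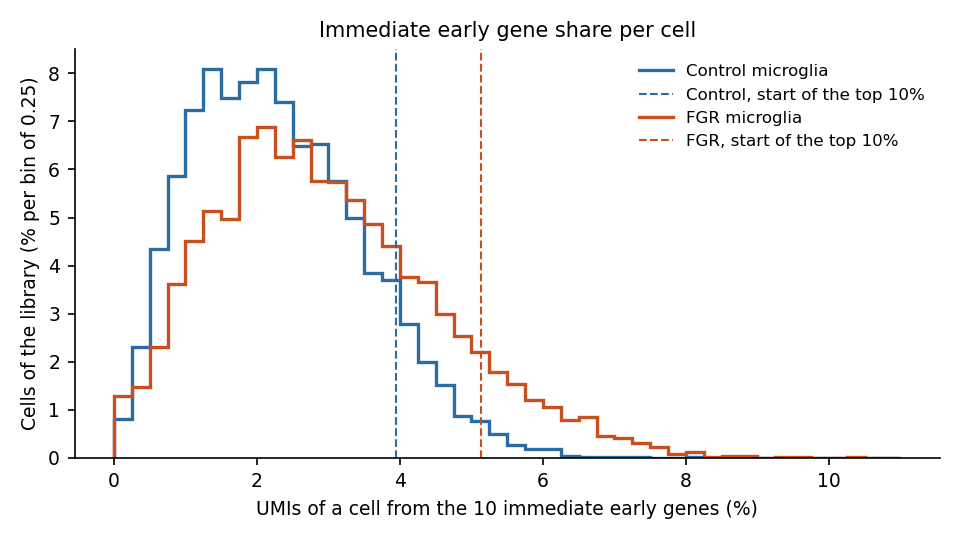
Share of each cell's UMIs that came from the 10 immediate early genes (horizontal axis, percent), as the percentage of a library's microglia in bins of 0.25 percentage points (vertical axis), for 1 Control and 1 FGR library. Dashed lines mark where the top 10% begins, at 3.95% in Control and 5.14% in FGR, and neither curve has a gap there.

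The FGR library was shifted towards a larger share, so its threshold lay 1.30 times higher. At the Control threshold, 25.1% of FGR cells (24.2 to 26.1%, 2083 of 8298) were as high as the Control top 10%. At the FGR threshold, 1.58% of Control cells (1.35 to 1.84%, 166 of 10498) qualified. Free RNA, measured in barcodes with 10 to 100 UMIs, also held more of the 10 genes in FGR, 3.14% against 2.13% in Control. Barcodes that had enough UMIs but failed the microglial gate held 1.20% in FGR and 1.34% in Control, at median depths of 2063 and 2025 UMIs. Of their summed UMIs, the early-gene-high cells had 6.05% in FGR and 4.57% in Control from these genes, which the choice made high. The other 90%, from which the choice had taken the highest cells, had 2.68% and 2.07%. Free RNA thus lay between the chosen cells and the rest in each library, and the choice itself set these apart. Fos itself stood at 2077 CPM in Control and 4975 CPM in FGR free RNA, between the levels of the other 90% and of the early-gene-high cells given below. Jun, at 4795 CPM in Control and 6000 in FGR free RNA, was lower there than in either set of cells. So was Btg2, at 1816 and 2628 CPM. The remaining genes of the 10 lay between the sets, as Fos did. The part of free RNA in the difference between libraries was not tested.

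The 10 genes that chose the cells have different jobs in the early response. Fos, Fosb, Jun, Junb and Atf3 code for proteins of the AP-1 and ATF families, Egr1 for a zinc finger activator, and Nr4a1 for an orphan nuclear receptor. Zfp36 codes for tristetraprolin, which binds AU-rich messenger RNAs and promotes their decay, Btg2 for an antiproliferative protein that also promotes deadenylation, and Ier2 for a nuclear protein of the early response. Promoters of such genes are known for sites of CREB and ATF proteins and of serum response factor. Promoter sequences of 8 of the 10 genes were analysed, from the RefSeq table of build GRCm38.p6 (those of Egr1 and Ier2 were not analysed here). In the 250 bases before the transcription start, TGACG, the core of the CREB and ATF site, occurred on either strand in 6 of the 8, with 10 matches in all, against 17.8% of 32851 promoters of the same length. The complete palindrome TGACGTCA, which contains the core, occurred in 1 of the 8, Btg2, against 1.55% of promoters. The CArG box of serum response factor occurred in 1 of the 8, Zfp36, against 1.47%. Sites farther upstream, and those of Egr1 and Ier2, were not searched, so these counts hold for the 250-base windows only. The windows of Fos, Nr4a1, Btg2 and Zfp36 are printed 5′ to 3′ on the gene's strand because they show the core once or repeatedly, the palindrome and the CArG box. Capitals mark the core (tgacg, or cgtca where it lies on the other strand) in Fos and Nr4a1, the palindrome in Btg2 and the CArG box in Zfp36. A match describes the letters and not binding.
Fos, chr12:85473640-85473889, plus strand: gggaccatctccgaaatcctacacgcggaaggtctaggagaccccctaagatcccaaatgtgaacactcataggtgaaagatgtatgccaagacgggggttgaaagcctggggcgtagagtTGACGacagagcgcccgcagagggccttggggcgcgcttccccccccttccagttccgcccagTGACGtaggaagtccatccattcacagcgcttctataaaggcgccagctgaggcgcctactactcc
Nr4a1, chr15:101266596-101266845, plus strand: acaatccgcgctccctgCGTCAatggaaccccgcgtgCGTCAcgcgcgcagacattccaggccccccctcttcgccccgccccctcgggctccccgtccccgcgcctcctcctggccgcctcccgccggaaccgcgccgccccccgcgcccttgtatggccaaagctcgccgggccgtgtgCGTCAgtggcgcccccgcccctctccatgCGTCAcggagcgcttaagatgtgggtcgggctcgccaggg
Btg2, chr1:134079156-134079405, minus strand: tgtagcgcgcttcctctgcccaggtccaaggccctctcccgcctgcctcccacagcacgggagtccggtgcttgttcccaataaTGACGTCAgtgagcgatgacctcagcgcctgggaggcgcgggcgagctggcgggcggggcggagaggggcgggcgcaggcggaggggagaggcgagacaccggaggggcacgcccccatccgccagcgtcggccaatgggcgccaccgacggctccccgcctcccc
Zfp36, chr7:28379229-28379478, minus strand: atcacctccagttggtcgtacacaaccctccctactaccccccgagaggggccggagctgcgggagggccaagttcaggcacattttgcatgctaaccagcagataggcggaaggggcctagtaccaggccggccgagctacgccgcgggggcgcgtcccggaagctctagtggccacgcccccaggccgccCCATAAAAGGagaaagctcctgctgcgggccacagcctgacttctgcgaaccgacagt
The Fos window holds the core 66 to 62 and 129 to 125 bases before the start. The Nr4a1 window holds it at 4 places, the nearest 40 to 36 bases and the farthest 233 to 229 bases before the start. The Btg2 palindrome lies 166 to 159 bases and the Zfp36 CArG box 58 to 49 bases before the start.

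All 10 genes were higher in the early-gene-high cells of both libraries, a direction that the choice of cells favours, and these levels are a description. Fos (chr12:85473890-85477273, GRCm38) stood at 5046 CPM in the early-gene-high cells and 1681 in the other 90% of the Control library, and 10493 and 3659 in the FGR library. The ratio of the early-gene-high cells to the rest was 3.0 (2.96 to 3.04) and 2.87 (2.84 to 2.90). Fosb stood at 1070.3 CPM in the early-gene-high cells and 424 in the other 90% of the Control library, and 2649 and 823 in the FGR library. Its ratio, 3.22, was the largest of the 10 genes in FGR, whereas Fos had the largest in Control. Jun (chr4:95049034-95052222), the most abundant of the 10, stood at 12039 CPM in the early-gene-high cells and 5553 in the other 90% of the Control library, and 14475 and 6266 in the FGR library, a ratio of 2.17 and 2.31. Junb stood at 5846 CPM in the early-gene-high cells and 3375 in the other 90% of the Control library, and 7491 and 4403 in the FGR library, and its ratios of 1.73 and 1.70 were among the smallest. Atf3 stood at 1419 CPM in the early-gene-high cells and 499 in the other 90% of the Control library, and 2218 and 1045 in the FGR library, with ratios of 2.84 and 2.12. Within the AP-1 and ATF group, the ratios of Fos and Fosb were larger than those of Jun and Junb in each library. Atf3 had a larger ratio than Fosb in Control (2.84 against 2.52) and a smaller one than Jun in FGR. The cells were chosen on these genes, so this order is a description only.

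Egr1 stood at 8112 CPM in the early-gene-high cells and 3363 in the other 90% of the Control library, and 7048 and 2454 in the FGR library. Of the 10 genes it and Ier2 had levels in the chosen cells that were lower in FGR than in Control, without passing the rule of size described below. Ier2 stood at 2011 CPM in the early-gene-high cells and 758 in the other 90% of the Control library, and 1851 and 702 in the FGR library. Zfp36 stood at 4095 CPM in the early-gene-high cells and 2205 in the other 90% of the Control library, and 6110.4 and 3632 in the FGR library, the smallest ratio in FGR at 1.68. Btg2 stood at 5879.7 CPM in the early-gene-high cells and 2796 in the other 90% of the Control library, and 7919.9 and 3727 in the FGR library, ratios of 2.10 and 2.13. Nr4a1 was far less abundant, at 139.6 CPM in the early-gene-high cells and 66.8 in the other 90% of the Control library, and 226 and 109 in the FGR library, and its share of the 10 genes' UMIs was 0.306% in Control and 0.374% in FGR, so it had almost no weight in the choice. When each gene was measured in cells ranked on the other 9, all 10 remained higher, with ratios from 1.52 (Zfp36 in FGR) to 2.71 (Fosb in FGR). When cells were ranked on a random 50% of each cell's UMIs and measured in the remainder, ratios ran from 1.63 (Junb in FGR) to 3.12 (Fosb in FGR). Jun overlaps Junos and Junb overlaps Prdx2, and the sources used here do not say whether counting used strand, so UMIs of such pairs may be assigned to either gene.

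**Figure D2:**
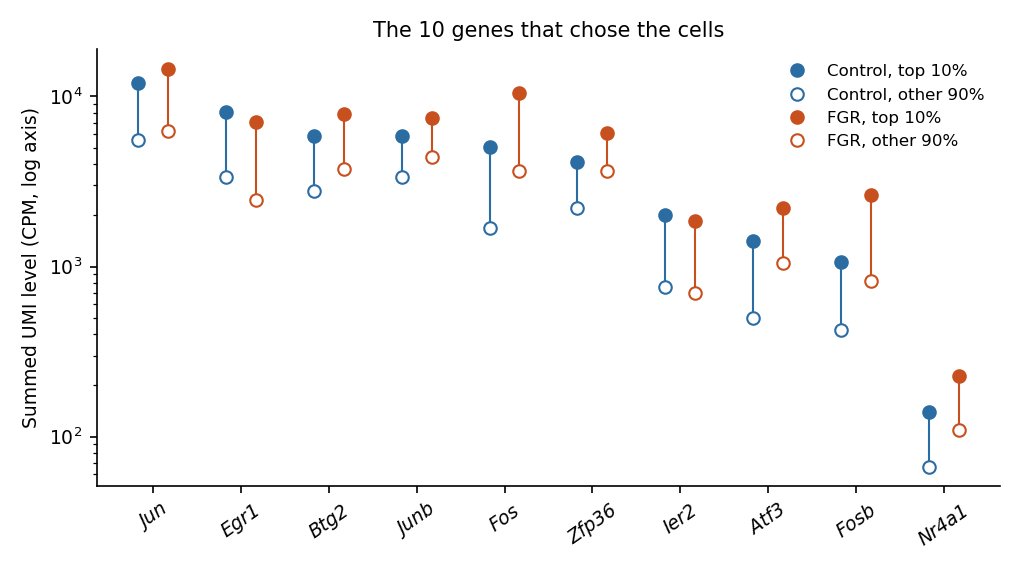
Summed UMI level of the 10 genes that chose the cells (vertical axis, CPM, log scale), ordered by the Control level. Filled circles are the top 10% and open circles the other 90% of the Control (blue) and FGR (orange) libraries, and each line joins the pair. Fos stands at 1681 and 5046 CPM in Control and at 3659 and 10493 CPM in FGR, and the filled circles of Egr1 and Ier2 lie lower in FGR, without passing the rule of size.

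The number of the 10 genes found per cell follows from the choice in part and is given as a description. With every cell thinned to 1500 UMIs, the median number of the 10 genes detected was 8 in Control and 9 in FGR early-gene-high cells, and 7 in the rest of both libraries. Single cells overlapped, with 5 to 10 genes in Control and 6 to 10 in FGR early-gene-high cells, and 0 to 10 in the rest. At least 8 genes were found in 77.7% of Control and 92.0% of FGR early-gene-high cells, against 29.8% and 43.2% of the rest. After the same thinning, Fos was detected in 94.1% and 99.9% of the chosen cells, against 69.3% and 84.6%. Fosb was detected in 59.6% and 82.5%, against 34.2% and 47.7%. Without thinning these shares were 97.5% and 100% for Fos and 77.5% and 94% for Fosb, and in the rest 85.6% and 93.7% for Fos and 57.6% and 70.5% for Fosb. The chosen cells held a median of 21 Fos UMIs in Control and 50 in FGR, and 53 and 70 Jun UMIs.

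The gene with the most UMIs in a cell differed between cells and between libraries, which is again a description. Counts from the 3′ end do not scale with transcript length, although capture can differ between genes. Jun led in 806 of 1049 Control cells (76.8%, 74.2 to 79.4%) and in 525 of 829 FGR cells (63.3%, 59.9 to 66.6%). Egr1 came next in Control, leading in 129 cells (12.3%, 10.4 to 14.4%), and led in 13 FGR cells (1.57%, 0.838 to 2.67%). Fos came next in FGR, leading in 185 cells (22.3%, 19.5 to 25.3%), and led in 49 Control cells (4.67%, 3.48 to 6.13%). Btg2 led in 27 and 55 cells and Junb in 33 and 45. In 28 and 19 cells the lead was tied. Intervals treat cells as independent draws from 1 library.

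Cells with different leading genes also differed in genes outside the choice. The 45 FGR cells led by Junb had 609.9 CPM of Ccrl2, a chemerin-binding receptor, against 161 in those led by Jun. They had 853 against 334 CPM of Cd83, a surface protein of activated myeloid cells, and 5276 against 3149 CPM of the chemokine Ccl4. In the opposite direction, they had 1512 against 4039 CPM of the Krüppel-like factor Klf2. The 55 FGR cells led by Btg2 differed from those led by Jun in the same directions. They had 334 CPM of Ccrl2, 443 of Cd83, 5978 of Ccl4 and 2287 of Klf2. Control cells led by Fos had 1346 CPM of Ccl3 and 2459 of Ccl4, against 667 and 1297 in those led by Jun. FGR cells led by Fos had 2032 and 4255 CPM, against 1342 and 3149. Control cells led by Egr1 had 161 CPM of Egr3, a related zinc finger factor, against 65.9 in those led by Jun. Tmem119 was close to even, between 818 CPM in FGR cells led by Junb and 954 in FGR cells led by Jun.

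Outside the 10 genes, more genes stood higher than lower in the early-gene-high cells. A gene was measured when it reached 50 CPM in either set, and it passed the rule of size when the complete interval of the ratio was over 1.5 or under 1/1.5. In Control 75 of 3571 measured genes were higher (2.1%) and 6 lower (0.168%). In FGR 62 of 3452 were higher (1.8%) and 2 lower (0.0579%). The median log2 ratio of all measured genes was -0.02 in Control and -0.05 in FGR. Of the higher genes 43 were shared, 57.3% of the Control list and 69.4% of the FGR list. Because the cells were chosen on UMIs of the same libraries, these counts describe the chosen cells and were not tested.

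The largest shared ratio belonged to Sertad1, a transcriptional co-regulator of the E2F pathway, which stood at 301 CPM in the early-gene-high cells and 112 in the other 90% of the Control library, and 124 and 43.7 in the FGR library. Its ratios were 2.70 (2.54 to 2.86) and 2.83 (2.56 to 3.12). Klf2 stood at 1797 CPM in the early-gene-high cells and 797 in the other 90% of the Control library, and 3666 and 1087 in the FGR library, ratios of 2.25 (2.20 to 2.31) and 3.37 (3.31 to 3.43). With the early-gene-high cells given first and the rest second, Klf4, a related factor, stood at 515 against 235 CPM in Control and 1341 against 477 in FGR, ratios of 2.20 and 2.81. Both Krüppel-like factors had larger ratios in FGR, a difference that was not tested. Egr2 stood at 194 against 87.3 CPM in Control and 101 against 38.2 in FGR, and Egr3 at 83.9 against 40.3 CPM in Control and 94.7 against 37.3 in FGR (both are relatives of Egr1, which chose the cells). Of the other early response genes 27 of 28 listed were found, and 8 of 14 measured in Control and 9 of 16 in FGR were higher and none lower, with median log2 ratios of 0.72 and 0.70. Jund, a Jun family member, stood at 4394 against 2367 CPM in Control and 7087 against 3558 in FGR, and Csrnp1, a nuclear protein of the early response, at 111 against 59.6 CPM in Control and 148 against 64.9 in FGR. Klf6 had ratios of 1.40 in Control and 2.14 in FGR and passed the rule in FGR, and the difference between the libraries was not tested.

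Several genes that restrain signalling were higher in the same cells. Dusp1, a phosphatase that switches off p38 and JNK, stood at 1211 CPM in the early-gene-high cells and 519 in the other 90% of the Control library, and 4995 and 2514 in the FGR library, ratios of 2.33 (2.27 to 2.40) and 1.99 (1.96 to 2.02). Errfi1, an inhibitor of EGF receptor signalling, stood at 149.6 against 75.2 CPM in Control and 107 against 64.8 in FGR and passed the rule in Control. Dusp6, a phosphatase of ERK, stood at 462 against 390.4 CPM in Control and 681 against 429 in FGR and passed it in FGR. Of the MAP kinase feedback genes 2 of 6 measured passed in Control and 3 of 7 in FGR, all higher. Among genes of messenger RNA decay and of antiproliferative proteins, 5 of 11 and 4 of 10 were higher and none lower. Cdkn1a, which codes for the cell cycle inhibitor p21, stood at 216 against 95.5 CPM in Control and 202 against 109.8 in FGR. Tob2, a relative of Btg2, stood at 524 against 308 CPM in Control and 325 against 184 in FGR. Cited2, a co-regulator that competes for p300, stood at 639 against 303 CPM in Control and 622 against 279.7 in FGR.

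Nfkbiz, an atypical IκB protein that works in the nucleus, stood at 521 CPM in the early-gene-high cells and 253 in the other 90% of the Control library, and 617 and 317 in the FGR library, ratios of 2.06 and 1.95. Nfkbia, the classical inhibitor of NF-κB, stood at 1354 against 789 CPM in Control and 2787 against 2128 in FGR, with ratios of 1.72 and 1.31, and passed the rule in Control. Of 12 measured NF-κB pathway genes 3 were higher in Control and 1 in FGR. Of the chemokines and cytokines 1 of 7 measured was higher in Control, and 1 of 11 was higher and 1 lower in FGR. Ccl4, a chemokine that microglia release early in activation, stood at 1450.1 against 1678 CPM in Control and 3656 against 3820.4 in FGR, ratios of 0.864 and 0.957. Ccl3 stood at 711 against 793 CPM in Control and 1562 against 1375 in FGR, and Tnf at 109.9 against 68.7 CPM in Control and 76.4 against 83.5 in FGR, and neither passed the rule in either library. Ccl4 did not pass it either. Il1b was under 50 CPM in all 4 sets, from 7.41 to 13.4 CPM. Ccl12 was higher in Control, 198 against 119.8 CPM, and stood at 167 against 159 CPM in FGR. Ccl2 was higher in FGR, 240.1 against 134 CPM, and stood at 272 against 177 CPM in Control.

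Stress genes were mixed. Of 5 measured genes of the integrated stress response, the translational programme downstream of eIF2α, the same number, 3, were higher in each library: Atf4, Ddit3 and Ppp1r15a. Ddit3, which codes for the factor CHOP, stood at 219 against 108 CPM in Control and 123 against 65.6 in FGR, and Ppp1r15a, a phosphatase subunit that reverses eIF2α phosphorylation, at 458 against 259.8 CPM in Control and 569 against 304 in FGR. Atf4 stood at 602 against 351 CPM in Control and 387 against 242 in FGR. Among heat shock genes, 1 of 11 measured was higher and 1 lower in Control, and 4 of 12 were higher in FGR. Dnajb1, a partner of HSP70, stood at 443 CPM in the early-gene-high cells and 172 in the other 90% of the Control library, and 237 and 91.8 in the FGR library, with a ratio of 2.58 in both. Hspa1a, an inducible HSP70, had ratios of 1.41 and 2.0, and its near-identical copy Hspa1b of 0.569 and 1.38. How UMIs were divided between these copies was not tested, so both genes' values are uncertain. Of 17 measured genes on a list of responses to enzymatic dissociation, which leaves out the 10 choosing genes, 7 were higher and 1 lower in Control and 8 were higher in FGR. Klf2, Jund, Ier5, Dusp1 and Nfkbiz, higher in both libraries, are on this list and on lists counted above. Tsc22d3, a glucocorticoid target, stood at 303 against 178 CPM in Control and 961 against 522 in FGR. Of 10 measured glucocorticoid response genes 4 and 3 were higher, Tsc22d3, Cdkn1a and Dusp1 in both libraries and Errfi1 in Control. All but Tsc22d3 were also counted in lists above. The part of tissue handling in these levels was not tested.

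**Figure D3:**
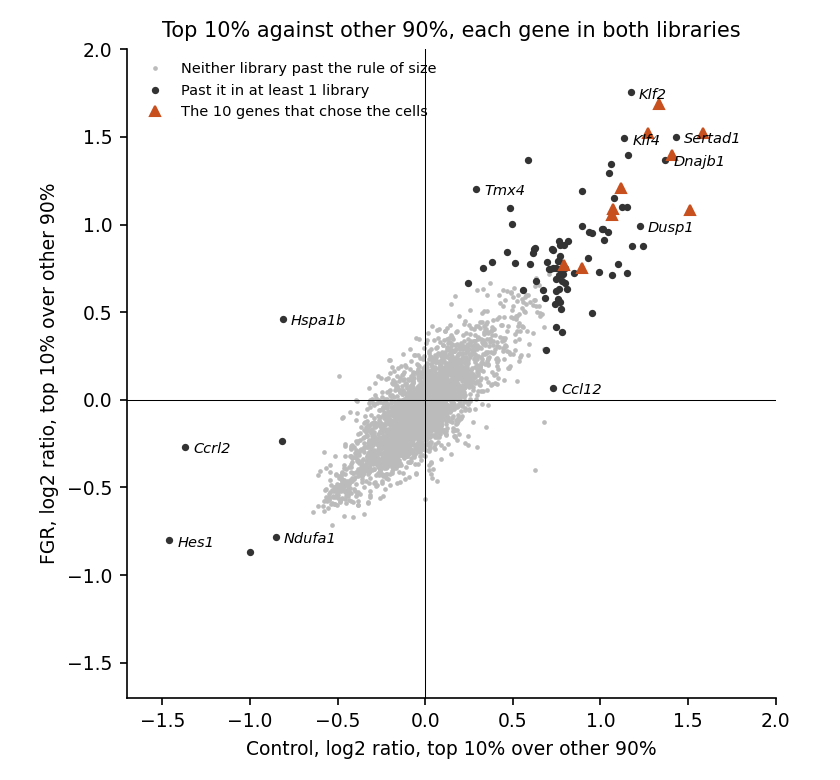
Each point is a gene measured in both libraries. The horizontal axis is the log2 ratio of the top 10% to the other 90% in Control and the vertical axis the same ratio in FGR. Dark points passed the rule of size in at least 1 library and triangles are the 10 genes that chose the cells. Most dark points lie to the upper right, and Hspa1b is the dark point to the upper left.

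Few genes were lower, 6 in Control and 2 in FGR. Hes1, a repressor and target of Notch, stood at 91.5 CPM in the early-gene-high cells and 252 in the other 90% of the Control library, and 38.1 and 66.4 in the FGR library, ratios of 0.364 (0.330 to 0.400) and 0.574 (0.485 to 0.674), and passed the rule in Control. Ccrl2 stood at 30.1 CPM in the early-gene-high cells and 78 in the other 90% of the Control library, and 224 and 269.7 in the FGR library, ratios of 0.386 (0.325 to 0.456) and 0.830 (0.776 to 0.888), and also passed in Control. Gdf15, a secreted stress cytokine of the TGF-β superfamily, was named after its values were seen. It stood at 1.26 CPM (6 UMIs) against 28.7 in Control and at 15.4 against 57.6 in FGR, ratios of 0.0437 (0.0160 to 0.0954) and 0.268 (0.205 to 0.343). It was under 50 CPM in both Control sets, so it was counted as lower in FGR and not in Control. Ndufa1, a subunit of respiratory complex I, stood at 28.9 against 52.1 CPM in Control and 36.9 against 63.4 in FGR. Vps18, Hspa1b and B430010I23Rik were also lower in Control, and B430010I23Rik was the 1 gene lower in both libraries. These 3 were named after their values were seen.

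Gene groups of translation and respiration had ratios under 1 across most of their members, as did several other groups given below. Messenger RNAs of cytosolic ribosomal proteins summed to 63714 against 87113 CPM in Control and to 61510.3 against 85321 in FGR. None of the 80 measured passed the rule in either library, yet 78 of 80 had a ratio under 1 in each, with medians of -0.46 and -0.48 on the log2 scale. All 13 mitochondrially coded genes had ratios under 1, with medians of -0.50 and -0.55. An example is mt-Nd1, a complex I subunit, at 1247 against 1902 CPM in Control and 1317 against 2000.2 in FGR. Nuclear genes of oxidative phosphorylation had medians of -0.32 and -0.34, and 1 of 72 was lower in Control and 0 of 75 in FGR. RNA kept in the nucleus went the other way: Neat1 stood at 459 against 240.5 CPM in Control and 599 against 308 in FGR and passed the rule in both, and Malat1 at 25992 against 22400.5 CPM in Control and 27939 against 23699.7 in FGR. Read beside these, the median share of mitochondrially coded UMIs per cell was lower in the chosen cells, as given above.

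Microglial identity genes stayed within the rule of size. None of 17 homeostatic genes passed the rule in either library, with medians of -0.13 and -0.20. Tmem119 stood at 929 against 913 CPM in Control and 928 against 967 in FGR, and P2ry12, a purine receptor of process motility, at 3027 against 3451 CPM in Control and 2375 against 2776 in FGR. Of 11 microglial transcription factors only Cebpa passed, in FGR, at 678 against 402 CPM, and it stood at 431 against 343 in Control. Sall1, a factor of microglial identity, stood at 541 against 544 CPM in Control and 319.6 against 371 in FGR. None of the 11 measured genes of disease-associated microglia passed, and all 11 had ratios under 1 in both libraries, with medians of -0.32 and -0.35. Apoe stood at 1199 against 1492 CPM in Control and 1484 against 1528 in FGR, and Tyrobp, an adaptor of activating receptors, at 1408 against 1791 CPM in Control and 1441 against 1917 in FGR. Lysosomal genes (15 measured) and genes of complement and phagocytosis (14 measured) had none past the rule. Their medians in Control and FGR were -0.20 and -0.23 for lysosomal genes and -0.14 and -0.12 for complement and phagocytosis. The 2 measured interferon response genes and the 3 measured cell cycle genes had none past the rule either.

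Each library was also cut into deciles of cells, ordered by the share of the 10 genes, and the highest decile is the early-gene-high set. Klf2 climbed in every step, from 185 to 1797 CPM in Control and from 211 to 3666 in FGR. Sertad1 climbed from 17.1 to 301 CPM and from 11 to 124. Ccl4 was highest at intermediate shares: in Control it was 1058 CPM in the lowest decile, peaked at 2147 in the fourth and stood at 1450.1 in the highest. In FGR it was 2143, peaked at 4329 in the eighth and stood at 3656. Ccrl2 peaked at 103 CPM in the second Control decile and fell to 30.1 in the highest, and in FGR it peaked at 323 in the sixth. Hes1 declined from 359.6 CPM in the third Control decile to 91.5 in the highest. In FGR it was lowest in the highest decile too, at 38.1 CPM, and lay between 57.7 and 76.7 in the others. Summed ribosomal protein messages were at 107803 CPM in the lowest and 63714 in the highest Control decile, and at 93153 and 61510.3 in FGR. Tmem119 stayed between 886 and 934 CPM in Control and between 914 and 1015 in FGR.

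**Figure D4:**
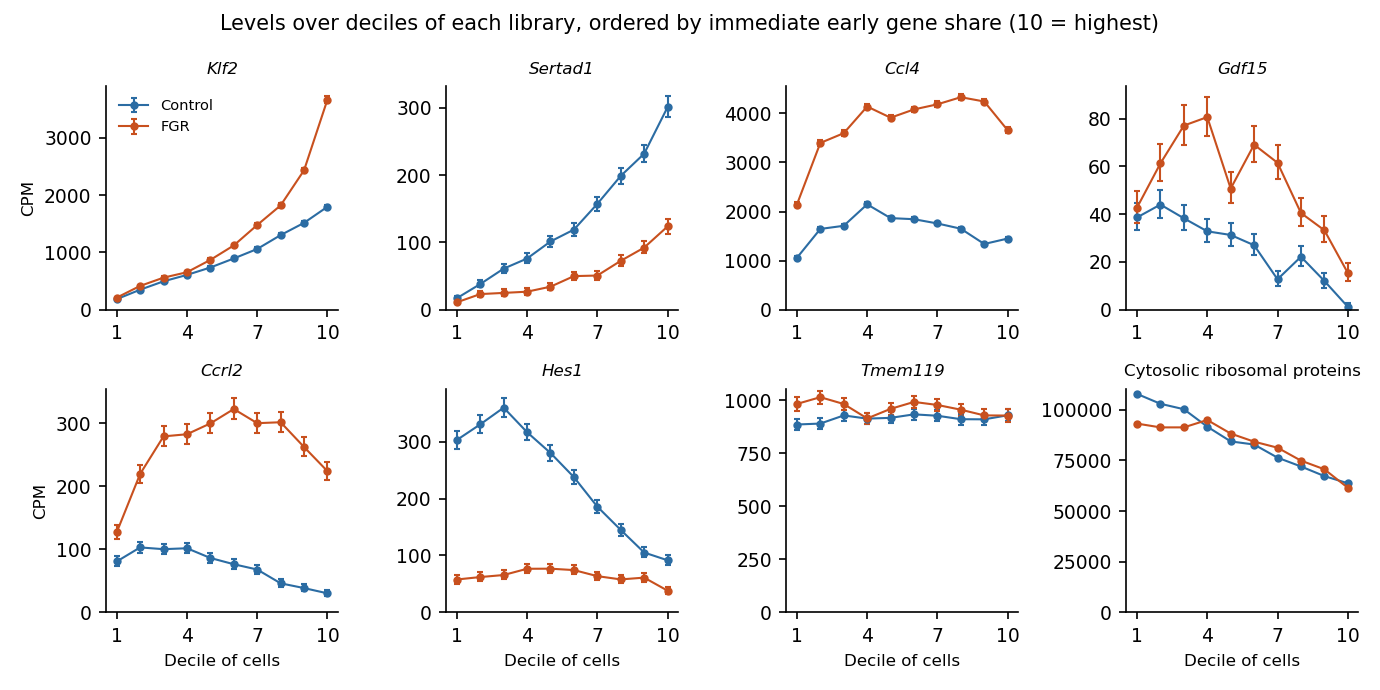
Summed level (vertical axes, CPM, each starting at 0) of 7 genes and of all cytosolic ribosomal protein messages in deciles of each library, ordered by the share of UMIs from the 10 immediate early genes (horizontal axes, 10 is the highest and is the early-gene-high set). Blue is Control, orange is FGR, and bars are 95% Poisson intervals, counting error only. Klf2 and Sertad1 climb throughout, Ccl4 peaks at 2147 CPM in Control and 4329 CPM in FGR before the highest decile, and Tmem119 is nearly level.

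The early-gene-high cells also varied among themselves. They were split at the median of the same share, so the summed share of the 10 genes is higher in the upper part by construction, although Nr4a1 in FGR had a ratio of upper to lower part of 0.994. Atf3 stood at 1658 CPM in the upper and 1190.5 in the lower part in Control, and Fosb at 3015 and 2303 in FGR. Hspa1a, which was not used, stood at 228 and 162 CPM in Control and at 544 and 348 in FGR, with intervals of the ratio of 1.23 to 1.61 and 1.42 to 1.72. Klf4 stood at 594 and 439.7 CPM in Control and at 1539 and 1155 in FGR. Ccl4 was the reverse, at 1387 and 1510.2 CPM in Control and 3305 and 3986 in FGR. P2ry12 was close to even, with ratios of 0.970 and 0.936.

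Early-gene-high cells of the FGR library were then set against those of the Control library, and levels are given for FGR first. Of 3564 measured genes 82 were higher (2.3%) and 60 lower (1.68%) in FGR by the rule of size, around a median log2 ratio of -0.10. Among the other 90%, 82 of 3510 were higher (2.34%) and 41 lower (1.17%), around a median of -0.06. Of the 10 choosing genes 3 were higher in FGR early-gene-high cells and none lower. Fosb had 2649 CPM in FGR and 1070.3 in Control, a ratio of 2.47 (2.39 to 2.56), and Fos had 10493 and 5046, a ratio of 2.08 (2.05 to 2.11). Atf3 had a ratio of 1.56, against 2.10 in the other 90%. Egr1 stood at 7048 against 8112 CPM, a ratio of 0.869, and Jun at 1.20. The libraries have different thresholds, and at the FGR threshold for both, which leaves 166 Control cells, the ratios were 2.09 for Fosb, 1.44 for Fos, 0.769 for Egr1 and 0.995 for Atf3, and Fos (1.40 to 1.48) and Atf3 no longer passed the rule there.

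The 10 largest ratios outside predicted and ribosomal genes were led by Cxcl10, an interferon-inducible chemokine. It stood at 168 CPM in FGR and 19.5 in Control early-gene-high cells, a ratio of 8.64 (6.95 to 10.9), and the other 90% had 7.37. Ccrl2 had 224 CPM in FGR and 30.1 in Control, a ratio of 7.43 (6.23 to 8.92), and the other 90% had 3.46. Hspb1, which codes for a small heat shock protein, had 91.1 CPM in FGR and 12.3 in Control, and the ratio was 7.38. Ddit4, an inhibitor of mTORC1, had levels of 391 and 70.3, and Tnfaip3, the NF-κB inhibitor A20, had 469 and 87.7. The others were Hist1h1d, Id2, Hist1h1c, Dusp1 and Rgs1, with ratios from 3.91 to 5.28. All 10 also had ratios above 1 in the other 90%, from 2.53 for Rgs1 to 7.37 for Cxcl10. The same held at the FGR threshold for both libraries, from 3.41 for Dusp1 to 17.1 for Cxcl10. With 166 Control cells left there, the interval for Cxcl10 was wide, 8.28 to 42.8.

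The 10 smallest ratios began with Hbb-bs, an adult haemoglobin chain, at 2.89 CPM in FGR and 52.9 in Control. It marks red blood cells and is not a microglial gene. Its ratio was 0.0546 in the early-gene-high cells, 0.201 in the other 90% and 0.295 at the FGR threshold, where it no longer passed the rule. Mbp, a myelin gene of oligodendrocytes, stood at 27 against 81.8 CPM, and all 8 oligodendrocyte markers summed to 92.1 against 171 CPM. Mid1, a ubiquitin ligase, stood at 12.1 against 60.3 CPM. Among regulators, Socs1, an inhibitor of JAK and STAT signalling, stood at 33 against 88.9 CPM, Sertad1 at 124 against 301, and Dusp7, an ERK phosphatase, at 99.5 against 241. Hes1 stood at 38.1 against 91.5 CPM, with a ratio of 0.416 (0.345 to 0.501) and 0.264 in the other 90%, and its 0.591 at the FGR threshold no longer passed. Gt(ROSA)26Sor, Nabp1 and Arl4d completed the 10, with ratios of 0.243, 0.403 and 0.434.

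**Figure D5:**
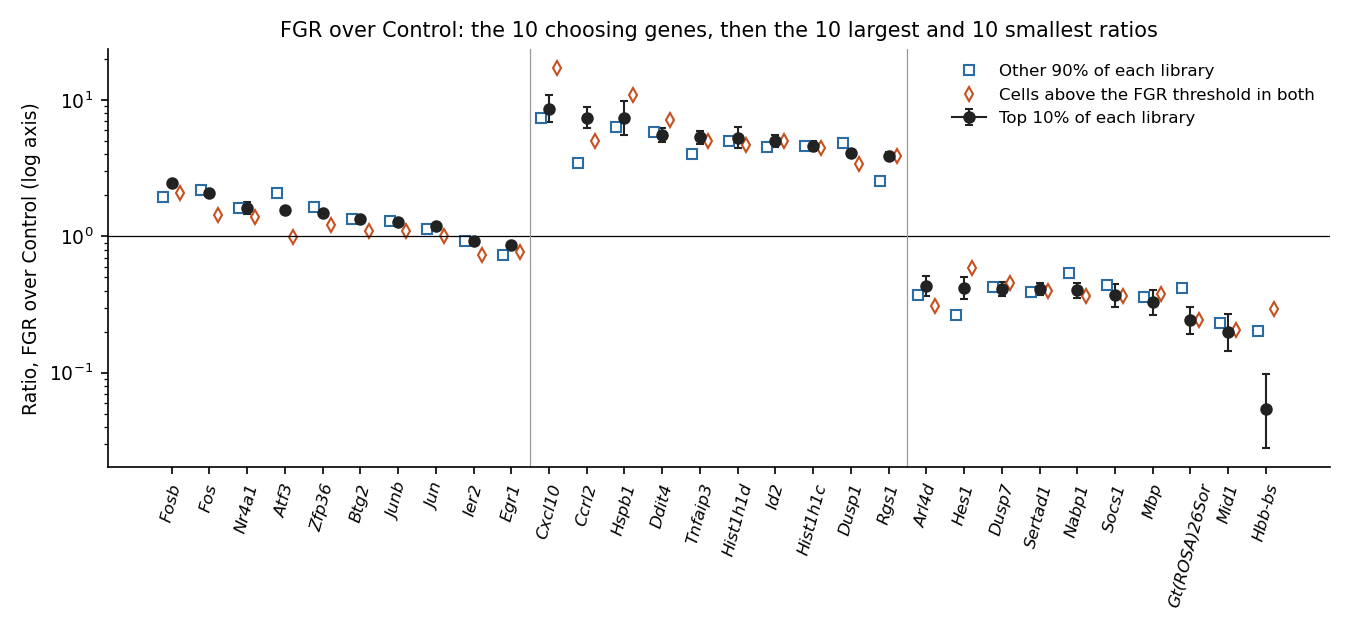
Ratio of FGR to Control levels (vertical axis, log scale) for the 10 genes that chose the cells, then the 10 largest and 10 smallest ratios in the early-gene-high cells. Filled circles are the top 10% of each library with 95% counting intervals, squares the other 90%, and diamonds cells above the FGR threshold in both libraries. Cxcl10 has the largest ratio, 8.64, and Hbb-bs the smallest, 0.0546. The 3 symbols lie on the same side of 1 for each of the 20 genes outside the choosing set, and for Atf3 the diamond is at 0.995.

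By gene group, 7 of 10 measured glucocorticoid response genes were higher and none lower in FGR early-gene-high cells, with a median log2 ratio of 1.12. The other 90% gave the same counts with a median of 1.04. Tsc22d3 stood at 961 against 303 CPM, a ratio of 3.17, and Fkbp5, a cochaperone of the glucocorticoid receptor, at 542 against 241, a ratio of 2.25. Dusp1 had 4995 CPM in FGR and 1211 in Control, and the ratio was 4.12 in the early-gene-high cells and 4.85 in the rest. Dissociation signature genes were higher in 10 of 17 cases, against 7 of 17 in the other 90%. Lists share members here too, with Dusp1 and Txnip counted in both the dissociation and the glucocorticoid list. Linker and other histone genes were higher in 5 of 7, among them H3f3b, which codes for the replacement histone H3.3, at 10132 against 4956 CPM. Of 10 measured chemokines and cytokines 4 were higher, with Ccl3 at 1562 against 711 CPM and Ccl4 at 3656 against 1450.1. Among other early response genes 5 of 16 were higher and 1 lower: Klf2 had a ratio of 2.04 and Klf4 of 2.60, and Egr2 stood at 101 against 194 CPM. None of the 17 homeostatic genes passed. Cebpb, a factor of inflammatory gene expression, was higher (1474 against 509 CPM) and Sall1 lower (319.6 against 541 CPM). With 1 library a group, these differences cannot be told apart from differences in handling.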

How the data were processed

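Raw UMI counts per gene and barcode, in matrices the authors deposited from Cell Ranger with no normalization, were used as given. The submitters' processing notes list Cell Ranger 3.0, Seurat 5.0 and mouse build mm10, with no more on counting, while the deposited matrices' headers name Cell Ranger 4. The labels name a chemistry whose barcode list is shorter than the 1961707 Control and 1935841 FGR barcodes in the matrices, and neither conflict was resolved. Cells were selected by the limits given above, and no doublets were removed. UMIs were summed over each set of cells and scaled to CPM. Sums came to 4778294 and 48306439 UMIs for the early-gene-high cells and the other 90% in Control, and to 4149026 and 40371379 in FGR. Intervals for levels are exact Poisson, for ratios exact conditional and for shares exact Clopper-Pearson. The calculation was tested on simulated counts. The analysis used numpy 2.4.6, pandas 2.3.3, scipy 1.17.1 and, for Scrublet, scanpy 1.11.5. Positions are from GENCODE on GRCm38.

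The members and the 27 gene lists were chosen with earlier results of these data known. Genes named are the 10 choosing and 7 gate genes, and the 12 largest shared ratios of early-gene-high cells to the rest (the 12 smallest were to be added, but the 1 gene lower in both libraries was a predicted one). The 10 largest and 10 smallest FGR to Control ratios, up to 4 members of each list and 14 genes given in every case were added. Predicted, ribosomal, mitochondrially coded and Y-linked genes and Xist were left out of the ranked genes, and a few of the genes these rules name are not reported here. Genes discussed by leading gene, by decile or outside these rules were chosen after their values were seen. The alternatives tried, 12 planned and 2 added after seeing the data, are in the closing section.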

Additional observations from a re-analysis of the deposited data

Results flagged for a closer look

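Hspa1b, an inducible HSP70 gene, was the 1 gene past the rule of size in either library whose ratio of early-gene-high cells to the rest pointed in opposite directions, 0.569 in Control and 1.38 in FGR. The difference between the libraries was not tested, since each group is 1 library. Hspa1a, a near-identical copy, had ratios of 1.41 and 2.0. How UMIs were divided between the copies was not tested.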

How the results depend on the processing

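Counts, shares and ratios were recomputed under 12 other settings and 2 more that were added after seeing the data. The share of FGR cells above the Control threshold moved from 25.1% to 26.6% with at least 100 UMIs over the 7 gate genes, 17.5% with the top 5%, 37.2% with the top 20% and 30.5% when ranked on Fos, Fosb, Jun, Junb and Atf3. With the top 5% or 20%, that share of Control cells lies above the threshold by construction, so these values are not comparable with 25.1%. The ranking on Fos, Fosb, Jun, Junb and Atf3 moved the ratio of thresholds from 1.30 to 1.44. It also moved the genes higher in Control from 75 to 47, those lower in Control from 6 to 2 and those lower in FGR from 2 to 1. Genes lower in Control came to 3 with the top 20% and 3 when ranked after thinning. Genes lower in FGR came to 13 with the top 5%, 7 without the 6% of cells with the highest doublet scores and 5 with a minimum of 20 CPM. Causes were not tested, and counts of lower genes are small. The ratio of FGR to Control for Atf3 in early-gene-high cells, 1.56, came to 0.995 with the FGR threshold in both libraries, the 1 reversal among the named genes that passed the rule. Other counts over all genes stayed within 1.5 times. The ratio of a named gene was counted as moved when it left its counting interval. The median of a list, which has no interval, was counted as moved beyond a fixed change in log2. Of 473 such values, 165 moved with the FGR threshold in both libraries, 161 with the ranking on 5 genes, 146 with the top 5% and 119 with the top 20%. Of 45 named genes past the rule in FGR against Control, 9 no longer passed at the FGR threshold, among them Fos at 1.44, Jund at 1.46, Hes1 at 0.591, Hbb-bs at 0.295 and Sall1 at 0.639, and 5 no longer passed with the top 5%. Within Control, 7 of 45 no longer passed at the FGR threshold and 7 when ranked on 5 genes, and within FGR 0 and 7 of 40. Ndufa1 in Control and Atf4 in FGR lost the call most often, under 9 and 5 settings. No paired analysis was possible because each group is 1 library, and for the same reason no replicate could be left out. Counting intervals are wider for less abundant genes, and genes under 50 CPM in both sets were not counted. That minimum, not depth, left out Gdf15 in Control, whose interval of 0.0160 to 0.0954 lay wholly below the lower bound of the rule.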

Other observations

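The following 4 genes were picked after their values were seen and stand for no gene group. Hexim1, an inhibitor of the elongation factor P-TEFb, stood at 259 against 134 CPM in Control and 125 against 64.8 in FGR, and Brd2, a reader of acetylated histones, at 795 against 417 CPM in Control and 514 against 293 in FGR. Both passed the rule of size in each library. Snhg1 and Snhg12, host genes of small nucleolar RNAs, passed in both as well, at 152 against 87.9 CPM in Control and 127 against 68.7 in FGR and at 251 against 151 CPM in Control and 172 against 102 in FGR. Of the linker and other histone genes 2 of 5 measured in Control and 2 of 7 in FGR were higher, Hist1h1c and H3f3b in each.

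The remaining gene groups gave few or no genes past the rule when the early-gene-high cells were set against the rest. Of the SOCS and JAK-STAT feedback genes 1 of 3 measured was higher in Control, Socs1 at 88.9 against 36.6 CPM, and 0 of 2 in FGR. In FGR Socs1 was under 50 CPM in both sets, at 33 against 16.2 CPM, and so was not counted. Its ratio there was 2.04 (1.68 to 2.45). None of 11 measured G protein signalling genes passed in either library. None of 7 and 8 measured MHC class I genes passed, with H2-K1 at 504 against 393 CPM in Control and 656 against 501 in FGR, and neither did the 1 and 2 measured MHC class II genes. Glycolysis genes had 0 of 10 and 0 of 11 past the rule, with median log2 ratios of -0.14 and -0.32.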
